A study of Pinus pinaster with 24 samples.

Results

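The developing vessels of maritime pine (Pinus pinaster) root tips were compared between seedlings given ammonium and seedlings given water. The comparison rests on 6 libraries of the 24 in the series, 3 per treatment, chosen by the tissue and treatment in the labels, and it covered 46960 of the 47118 transcripts listed. All seedlings came from the Segura-Alcaraz provenance, were 1 month old and had spent 3 days on a nutrient solution without nitrogen. The ammonium group then received 80 mL of 3 mM NH4Cl and the water group the same volume of water, and root tips were taken 24 h later. The region, labelled both as developing root vascular tissue and as developing vessels, was cut by laser from frozen sections 30 µm thick, and its RNA was amplified before paired sequencing. The titles number the experiments 1, 3 and 4, and a library is called here by its treatment and experiment number. The labels do not tie libraries to plants or say how many seedlings were pooled. Each p-value therefore reflects variation among libraries only, some of which may be technical. In the main test that variation was estimated over all 24 libraries of the series, so it is not that of the 6 alone.

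Developing vessels are the young water-conducting strand of the root. In conifers this xylem is built of tracheids, which lay down a thick lignified wall and then die, and the strand lies beside phloem and parenchyma cells that a laser cut can include. Ammonium enters root cells through AMT transporters and is joined to glutamate by glutamine synthetase, and conifers are known for using ammonium readily as a nitrogen source. The deposited table lists transcripts by identifier alone, with 0 of them paired to a gene name. Neither these pathways nor the defining markers of xylem could therefore be looked up, and transcripts are given as identifiers, levels and tissue patterns.

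The 6 vessel libraries held 67628653 to 87994334 recovered reads, and 3 reads corresponded to a deposited signal of 0.0309 to 0.0430. Each of the 6 resembled the water mean of the vessels more than that of any other tissue, with a correlation across transcripts of 0.941 to 0.977. For each water library this mean was taken over the other 2 water libraries. Ammonium 4 correlated at 0.941 with the vessels and at 0.927 with the meristem, and water 1 at 0.962 and 0.876. The other 4 libraries correlated with the meristem at 0.806 to 0.824.

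**Figure D1:**
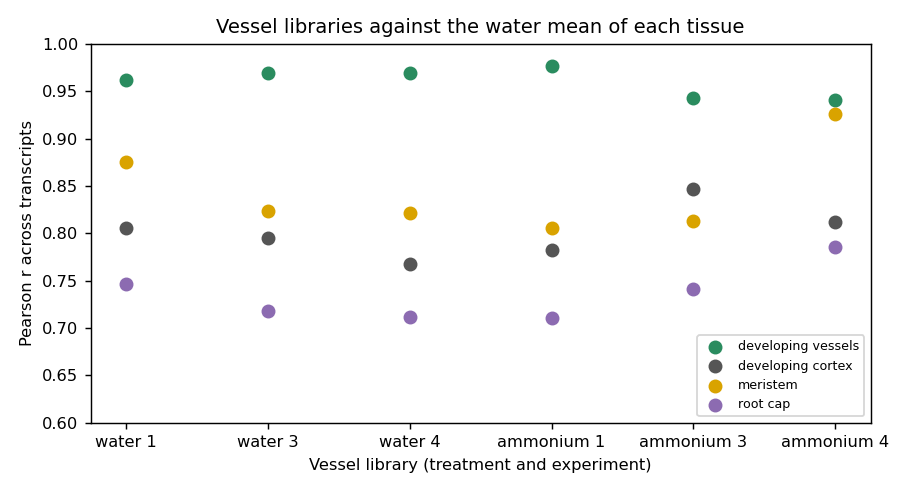
Pearson correlation across transcripts (vertical axis, from 0.6 to 1) of each vessel library (horizontal axis) with the mean of the water libraries of each tissue, shown by color; a water library was left out of its own tissue mean. The vessel point is the highest in every library, and the meristem point of ammonium 4, at 0.927, lies close to its vessel point at 0.941.

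Transcript levels in the vessels did not separate by treatment. Ammonium 1 was closest to water 3 (r = 0.967) and water 4 (r = 0.965), above each correlation between 2 water libraries, which ran from 0.953 to 0.963. The 3 ammonium libraries correlated with each other at 0.901 to 0.939, with ammonium 3 and ammonium 4 the least alike. The spread within the ammonium group was also wider, with a root mean square SD of 0.51 on the log2 scale against 0.38 with water. The ammonium libraries held 45889 ± 118 (SD, n = 3) transcripts with over 3 reads and the water libraries 45531 ± 93.5, without overlap. An exact permutation test gave p = 0.1 (2-sided), the smallest that 3 against 3 libraries allow. Adjusted over the 4 library properties tested, that p was 0.4. Reads per library and the shares of signal in the top 10 and top 100 transcripts gave exact permutation p = 0.6, 0.5 and 0.3.

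Subtracting the water library from the ammonium library of the same number gave 3 sets of differences that share no library. The number serves here only to match libraries by their titles, since the labels do not say that it marks shared plants. Across transcripts, which are not independent replicates, those of experiments 1 and 3 correlated at 0.04, those of experiments 3 and 4 at 0.16, and those of experiments 1 and 4 at -0.33. A log2 difference of at least 1 was seen for 2346, 2392 and 2712 transcripts in experiments 1, 3 and 4, and a log2 difference of -1 or below for 644, 1521 and 3861. In all 3 experiments together, 78 transcripts (0.166%) were higher by at least 1 and 3 (0.00639%) lower by at least 1. Large differences were common in each set, and few of them recurred in all 3.

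The 3 transcripts lower by at least 1 in each experiment were pp_129878, pp_131310 and pp_224533, named after their values were seen. Transcript pp_131310 held a signal of 3.05, 4.52 and 1.58 with water and 0.673, 0.0625 and 0.0617 with ammonium in experiments 1, 3 and 4. All 3 ammonium values lay below all 3 water values. Its log2 difference was -1.64 (SE 0.41), and with a limma adjusted p = 0.807 it did not pass the threshold. Transcript pp_224533 held 5.92, 11.9 and 4.33 with water and 1.93, 4.85 and 0.782 with ammonium. Here the groups overlapped, since ammonium 3 lay above water 4.

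Across all 46960 transcripts, ammonium raised 1 transcript in the vessels and lowered 0, which is 0.00213% of those tested (limma over all 24 libraries, with a Benjamini-Hochberg adjusted p under 0.05). At an unadjusted p under 0.05 there were 1507 (3.21%), of which 762 were higher (1.62%) and 745 lower (1.59%). On the recovered reads, the quasi-likelihood test of edgeR called 0, with 1644 at an unadjusted p under 0.05. In 2084 transcripts (4.44%) all ammonium libraries lay above all water libraries, and in 1997 (4.25%) all lay below. The median log2 difference was -0.01, and the 5th and 95th percentiles were -0.45 and 0.59.

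The 95% intervals give the precision of each difference and are not adjusted for the number of transcripts tested. Large differences could therefore miss the threshold, such as 3.92 on the log2 scale for pp_162980 (95% interval 1.58 to 6.27). The median half-width was 0.64 on the log2 scale, from 0.58 for transcripts with a mean signal of 1 to 10 over the 6 libraries to 0.91 for those under 1. These differences are of log2(signal + 1). For 29853 transcripts (63.6%) the interval lay wholly between -1 and 1, so a difference of that size on this scale was outside it. For 5136 (10.9%) it lay between -0.5 and 0.5. Of the 29853, 19593 had a mean signal of 1 to 10 and 2700 one under 1. At such levels this scale understates the fold change in signal. The groups of all tissues share an estimate of the spread in this fit. With the fit run on 22 libraries, leaving out the meristem ammonium libraries numbered 3 and 4, the vessel contrast called 0 (limma, 1871 at an unadjusted p under 0.05).

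The called transcript was pp_147764. Its signal was 0.269, 0.419 and 0.0778 in water 1, 3 and 4 and 3.41, 7.23 and 2.22 in ammonium 1, 3 and 4, on 6 to 34 reads against 216 to 578. All 3 ammonium libraries stood far above the highest water library. The log2 difference was 1.97 (95% interval 1.39 to 2.55, SE 0.28, limma adjusted p = 0.0459). In its identifier neighbour pp_147765 the ammonium libraries also lay wholly above the water libraries, at an unadjusted p under 0.05.

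Outside the vessels pp_147764 stayed low under both treatments. Its ammonium and water means (n = 3) were 0.481 ± 0.495 and 0.512 ± 0.263 (SD) in cortex, and every mean in meristem and root cap was below these. Set against the mean effect of the other 3 tissues, the vessel effect was higher by 1.97 (SE 0.28), with a limma adjusted p = 0.208. No interaction passed the threshold for any transcript: vessels against the mean of the other tissues called 0 (limma, 1802 at an unadjusted p under 0.05), and vessels against root cap, meristem and cortex each called 0 (1350, 1735 and 2691 at an unadjusted p under 0.05). Its call ended without each water library in turn (adjusted p = 0.0643, 0.0742 and 0.119) and without ammonium 3 (0.0616), within a range of 0.000453 to 1 over 20 alternatives, all of which kept its direction.

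Next in order of p came pp_252690 and pp_92563, named after their values were seen. Transcript pp_252690 held 0.769, 1.36 and 0.946 with water and 7.13, 5.67 and 5.62 with ammonium. The 3 ammonium values were close to one another and far above the water values, and the difference was 1.82 on the log2 scale (SE 0.30, limma adjusted p = 0.170). In the meristem it was likewise higher in every ammonium library (mean 3.92 against 0.996), while the root cap means were 1.69 and 1.56. Transcript pp_92563 held 0.171, 0 and 0.0259 with water, on 0 to 14 reads, and 0.931, 1.61 and 2.45 with ammonium. Its ammonium libraries lay above its water libraries in all 4 tissues, and its vessel difference was 1.29 (SE 0.22, limma adjusted p = 0.170).

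Transcripts pp_58601 and pp_58602, which stand next to each other in the table, had the same order in every tissue. In the vessels pp_58601 rested on 0 to 6 reads with water and 106 to 208 with ammonium (log2 difference 1.36, SE 0.29, limma adjusted p = 0.737), and pp_58602 on 0 to 2 and 39 to 112. Transcript pp_203535 had 0 to 2 reads with water and 21, 437 and 333 with ammonium 1, 3 and 4. Transcripts pp_58602 and pp_203535 were the only ones with at most 3 reads in each water library and at least 20 in each ammonium library.

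The 8 greatest rises among more abundant transcripts were taken from the 165 with a mean signal of at least 5, an unadjusted p under 0.05 and ammonium libraries wholly above water libraries. With one transcript taken per run of consecutive identifiers, their log2 differences ran from 2.43 to 3.92, and none passed the threshold. Since they were selected on this contrast, their differences are a description. By their levels in the other tissues, they fell into a few patterns.

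Transcript pp_162980 had the greatest difference. Its signal was 1.60, 0.345 and 0.415 in water 1, 3 and 4 and 10.7, 28.3 and 49.0 in ammonium 1, 3 and 4 (log2 difference 3.92, SE 1.12, limma adjusted p = 1). All 3 ammonium libraries stood above all 3 water libraries here, in the meristem (means 33.3 and 1.69) and in the cortex (46.2 and 1.17). In the root cap the groups overlapped, at 6.20 to 32.2 with ammonium and 0.446 to 89.4 with water, and the ammonium mean was below the water mean.

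Transcripts pp_209973 and pp_101051 had higher ammonium means than water means in all 4 tissues. In the vessels pp_209973 held 1.90, 0 and 0.0259 with water and 6.69, 58.6 and 11.2 with ammonium, so ammonium 3 carried most of its mean. Transcript pp_101051 was steadier, with 1.48, 2.55 and 3.37 with water against 11.3, 41.7 and 14.3 with ammonium (log2 difference 2.57, SE 0.61, limma adjusted p = 0.737). Its cortex level was 71.2 ± 7.11 (SD, n = 3) with ammonium and 23.6 ± 8.90 with water.

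The other 5, pp_181110, pp_85679, pp_203585, pp_88527 and pp_85638, had the opposite order of means outside the vessels. Their ammonium means were above their water means in the vessels and below them in each of the other 3 tissues. In meristem and root cap the ammonium and water libraries overlapped for all 5, and in the cortex for pp_85679, pp_203585 and pp_85638. Meristem water libraries spread widely, from 0.0139 to 30.4 for pp_85679 and from 0.181 to 13.6 for pp_88527. Root cap means were at most 0.447. Transcript pp_181110 held 1.22, 6.21 and 2.25 with water and 9.64, 74.2 and 47.6 with ammonium in the vessels. In the cortex its mean was 2.31 ± 1.65 (SD, n = 3) with ammonium and 26.5 ± 23.9 with water, without overlap between the libraries. In the root cap it was nearly absent, at 0.0697 with ammonium and 0.282 with water.

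In the vessels pp_85679 held 1.59, 13.7 and 2.20 with water and 18.8, 188 and 21.4 with ammonium. Ammonium 3 again stood far above the rest, and water 3 was the highest water library. In the vessels pp_203585 held 0.342, 11.1 and 2.76 with water and 16.7, 71.6 and 20.5 with ammonium, with the same 2 libraries highest in their groups. For pp_88527 the values were 0.684, 2.60 and 0.765 against 4.44, 41.9 and 12.2. These 3 transcripts and pp_181110 thus shared an order of vessel libraries. With ammonium their order of tissues differed. The cortex mean was above the meristem mean for pp_203585 (2.78 and 2.29) and below it for pp_88527 (1.12 and 3.68).

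Only pp_85638 of these 8 belonged to the vessel-enriched transcripts described below. It held 0.586, 5.77 and 19.6 with water and 35.9, 37.6 and 23.1 with ammonium. Its ammonium values were within 2-fold of each other, and its water values spread widely. Set against the cortex effect, the vessel effect was higher by 6.02 (SE 1.30) for pp_181110 and by 3.57 for pp_85638, with limma adjusted p = 0.553 for both.

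**Figure D2:**
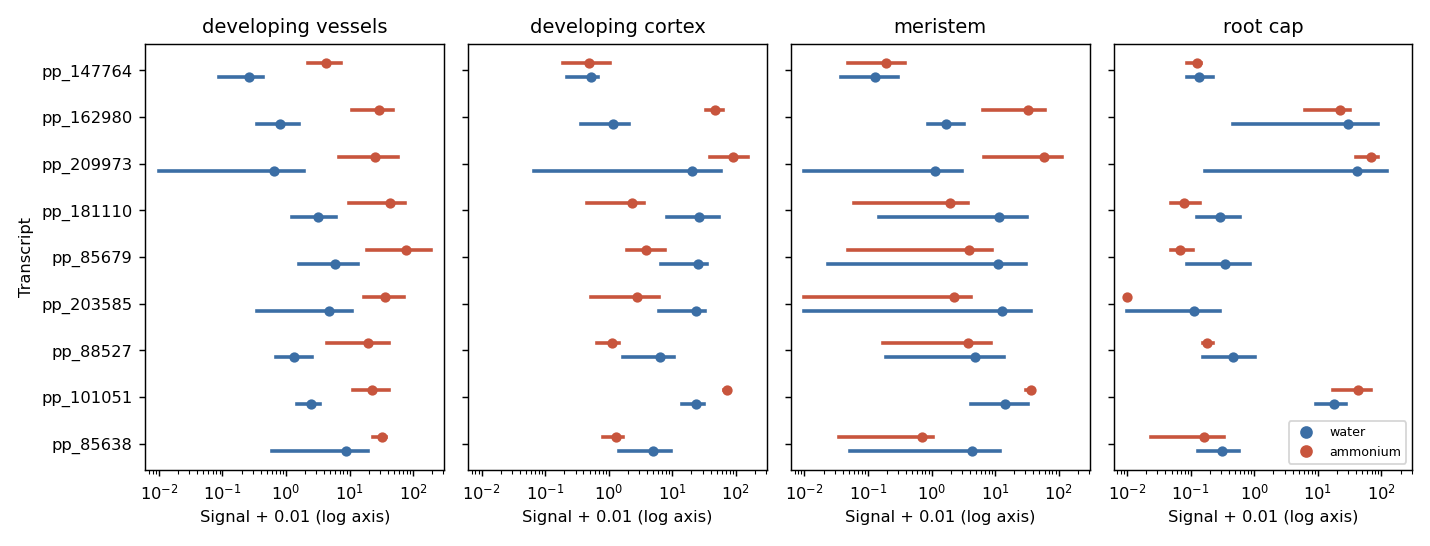
Deposited signal plus 0.01 (horizontal log axis) of the called transcript pp_147764 and the 8 greatest rises in the vessels (rows), in each tissue (panels); points are means of 3 libraries and lines run from the lowest to the highest library, water in blue and ammonium in red. For pp_181110, pp_85679, pp_203585, pp_88527 and pp_85638 the ammonium mean is above the water mean in the vessels and below it in the other panels.

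The 78 transcripts higher by at least 1 in each experiment varied in the other tissues. Counted among the 78 alone, they formed 62 runs of identifiers, so neighbours with an unselected identifier between them count as separate runs. The 78 were chosen on the vessel values and include pp_181110, pp_85679, pp_203585 and pp_88527 with identifier neighbours. Their counts are thus a description and no support for the order just given. In the cortex, 29 of them had an ammonium mean lower by at least 1, against 1.95% of all transcripts, and 14 had a mean higher by at least 1, against 4.05%. The cortex median of the 78 was -0.01. In the meristem, 27 were higher by at least 1, against 3.18% of all transcripts, and 7 lower, against 2.44%. In the root cap 12 were higher, against 1.52%, and 6 lower, against 0.958%. In all 4 tissues, 9 of the 78 were higher by at least 1, and the same share was not computed for all transcripts. Libraries of different tissues share no RNA, but those with the same treatment and experiment number may share plants.

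The 8 greatest falls came from 152 transcripts selected in the same way, and their log2 differences ran from -1.11 to -1.97. None passed the threshold. Of the 8, 7 were vessel-enriched, against 6.58% of all transcripts. The share among transcripts with a mean signal of at least 5 was not computed. At an unadjusted limma p under 0.05, 357 of the 745 lower transcripts were vessel-enriched and 44 of the 762 higher ones. Transcript pp_57413 held 42.3, 19.3 and 16.0 with water and 15.5, 9.94 and 0.370 with ammonium (log2 difference -1.97, SE 0.81, limma adjusted p = 1). Water 4 and ammonium 1 were nearly level, so the groups were barely apart.

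Transcript pp_72948 held 27.5, 26.6 and 27.8 with water and 25.6, 2.66 and 6.39 with ammonium. The water libraries were almost identical, ammonium 1 stood just below them, and ammonium 3 and 4 were far lower. For pp_145491 the values were 18.6, 23.5 and 24.0 against 17.4, 4.21 and 5.61, the same order (log2 difference -1.41, SE 0.40, limma adjusted p = 1). Its identifier neighbours pp_145484 and pp_145487 were lower in the same manner. In the cortex pp_145491 had a mean of 0.0164 with ammonium and 0.952 with water, and in the root cap it was nearly absent.

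The remaining falls were more even among the ammonium libraries. Transcript pp_202151 rested on 3250, 1789 and 4934 reads with water and 1501, 750 and 1437 with ammonium. Transcript pp_112427, the only one of the 8 that was not vessel-enriched, held 12.4, 7.37 and 17.0 against 3.14, 3.99 and 6.06, and its ammonium means were below its water means in all 4 tissues, without overlap in root cap, vessels and cortex. The falls pp_85071, pp_152440 and pp_59874 had log2 differences of -1.18, -1.15 and -1.11, and ammonium 4 was the lowest library for each.

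**Figure D3:**
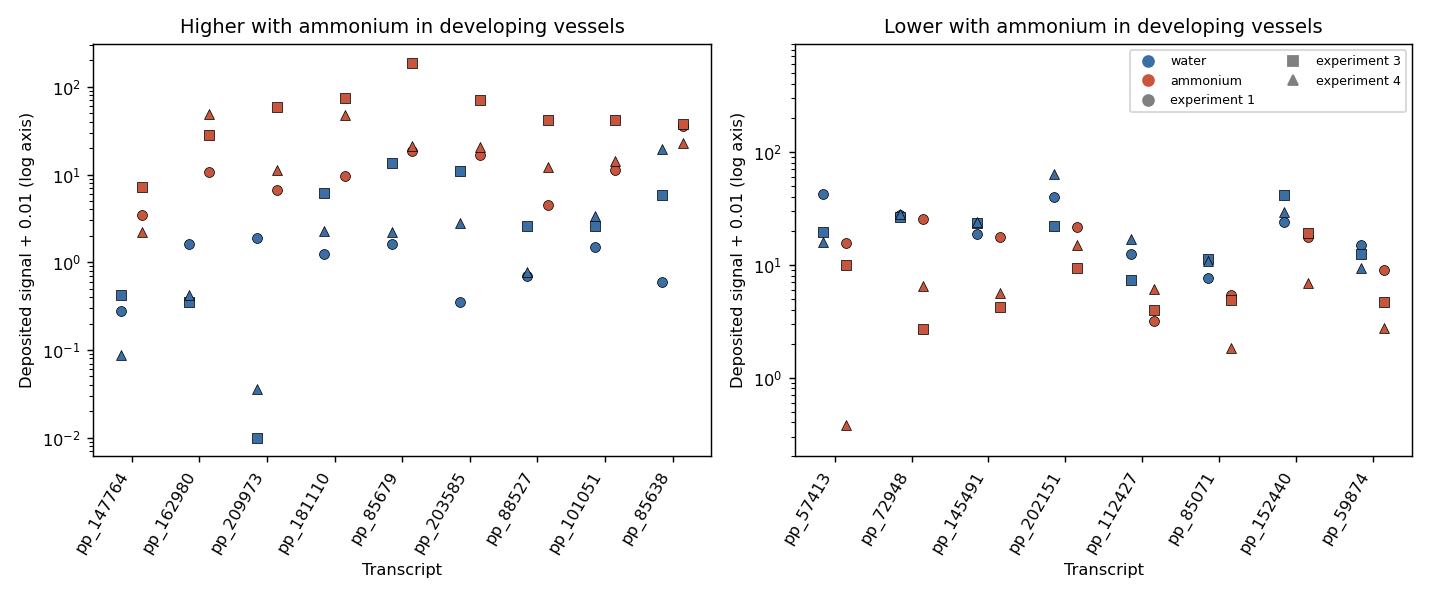
Deposited signal plus 0.01 (vertical log axis) in each vessel library for the called transcript and the 8 greatest rises (left) and the 8 greatest falls (right); blue is water, red is ammonium, and the marker gives the experiment. The 3 red points lie above the 3 blue points in the left panel and below them in the right panel because the transcripts were selected so; ammonium 1 (red circles) lies close to the water points for pp_72948 and pp_145491.

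Among transcripts with a smaller p than these, pp_245454 and its neighbour pp_245455 were both lower and vessel-enriched, and were named after their values were seen. The first held 7.48, 5.89 and 5.30 with water and 3.61, 1.18 and 1.78 with ammonium (log2 difference -1.24, SE 0.22, limma adjusted p = 0.253). For the second, the reads were 1034, 813 and 688 against 476, 244 and 449. Transcript pp_128900 was even among libraries, with 336, 337 and 241 reads against 105, 129 and 139 (log2 difference -0.92, SE 0.20, limma adjusted p = 0.737). In the other direction pp_246713, also vessel-enriched and listed at 0 in every cortex library, held 1.00, 1.61 and 0.739 against 5.31, 2.66 and 6.93.

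Vessel-enriched transcripts as a group were lowest in ammonium 4 and highest in ammonium 1, and ammonium 3 lay within the range of the water libraries. Vessel-enriched here means a level at least 1 higher on the log2 scale than in each other tissue, with an adjusted p under the threshold every time and with ammonium and water libraries pooled, so the lists come from these libraries. The 200 with the greatest differences form the vessel list. Its mean log2(signal + 1) was 5.76, 6.38 and 6.44 in water 1, 3 and 4 and 6.54, 5.90 and 4.88 in ammonium 1, 3 and 4. The highest and the lowest of the 6 libraries were both ammonium libraries.

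By transcript, 163 of the 200 had a lower mean log2 level with ammonium and 37 a higher one, with a median log2 difference of -0.37. Among all transcripts 24288 were lower and 22534 higher, with a median of -0.01. None of the 200 was called, 1 had libraries wholly apart downward and 1 upward, against 4.25% and 4.44% of all transcripts. Over all 3090 vessel-enriched transcripts, 2355 were lower, the median was -0.28, and 135 (4.37%) were wholly apart downward and 19 (0.615%) upward. Without ammonium 4 the median of the 200 was 0.13, so that library decided its direction. In dissected tissue, fewer vessel cells in a cut and less RNA per cell cannot be told apart.

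Lists of the other tissues were read in the same vessel libraries. Whether their levels reflect cells of those tissues in a cut was not tested. The meristem list (125 transcripts) had a mean of 2.20 in ammonium 4, against 1.06 to 1.46 in the other 5 vessel libraries and 2.89 to 3.72 in meristem water libraries. The cortex list (200 transcripts) ran from 1.22 in water 4 to 2.81 in ammonium 3, and was 5.11 to 6.05 in cortex water libraries. The root cap list (200 transcripts) was low throughout, at 0.444 to 0.608. Meristem list members were higher with ammonium in 94 of 125 (median 0.18), cortex list members in 112 of 200 (median 0.06) and root cap list members in 138 of 200 (median 0.04). Without ammonium 4 the meristem median was -0.18, and the cortex median was -0.13 without ammonium 3 and -0.14 without water 4. The part of these differences in the transcript contrasts was not tested.

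**Figure D4:**
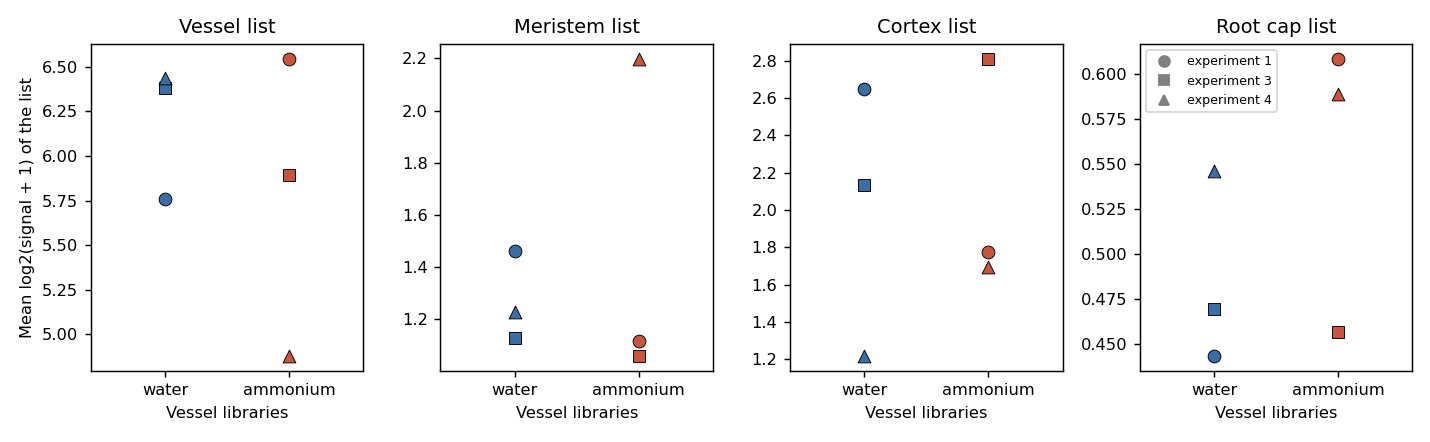
Mean log2(signal + 1) over the transcripts of each tissue list (vertical axes, each panel on its own range) in the 6 vessel libraries, water in blue and ammonium in red, with markers for experiments 1, 3 and 4. The vessel list is highest in ammonium 1 (6.54) and lowest in ammonium 4 (4.88), and ammonium 4 has the highest meristem list mean (2.20).

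The leading vessel transcripts were ranked with ammonium and water libraries pooled, so their high levels in both groups follow in part from that choice. Transcript pp_155609 held 139, 150 and 216 with water and 279, 109 and 93.5 with ammonium, and pp_203568 held 132, 183 and 275 against 525, 140 and 126. For both, ammonium 1 was the highest library. Ammonium 3 and 4 lay below all water libraries for pp_155609, and ammonium 3 lay just above water 1 for pp_203568. The log2 differences were -0.22 (95% interval -1.16 to 0.73) and 0.16 (-1.17 to 1.49), so each interval reaches past a 2-fold change. Transcripts pp_76264, pp_58112 and pp_199412 had log2 differences of 0.08, -0.20 and -0.11. Transcript pp_57705 held 420, 957 and 658 against 886, 135 and 200, a log2 difference of -1.15 (95% interval -3.90 to 1.60). All 6 had overlapping groups.

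The most abundant vessel transcripts varied little. Transcript pp_66210 held 5338, 5334 and 7615 with water and 7019, 6766 and 5117 with ammonium, and the difference was 0.05 on the log2 scale (95% interval -0.46 to 0.57). Transcripts pp_235812, pp_109023 and pp_94288 had log2 differences of 0.20, 0.36 and -0.33, with intervals of -0.48 to 0.89, -0.44 to 1.16 and -0.92 to 0.25. The interval of pp_109023 alone among them reached past a 2-fold change.

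The number of calls turned on ammonium 1. Without it limma called 136 transcripts, 17 higher (0.0362%) and 119 lower (0.253%), against 1 to 11 calls without any other vessel library. The remaining arm then has 2 libraries and is assumed to vary like the other groups. Of the 119 lower transcripts, 106 (89.1%) were vessel-enriched, as were 6.58% of all transcripts. The vessel-enriched set comes from the same libraries, and the share among transcripts of similar signal was not computed. Counted among themselves alone, the 119 formed 80 runs of identifiers, and neighbours with an unselected identifier between them count as separate runs. In ammonium 1 the level of 67 of the 119 lay inside the range of the water libraries. The same share was not computed for all transcripts, so this count does not set the 119 apart.

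Relative to the water mean, the 119 had a median log2 difference of -1.41 in ammonium 3 and -1.28 in ammonium 4, but -0.01 in ammonium 1. The 119 were selected on ammonium 3 and 4 against water, so the first pair of values is a description. Over all 3090 vessel-enriched transcripts the median was -0.24 in ammonium 3, -0.86 in ammonium 4 and 0.24 in ammonium 1, and -0.28, 0.14 and 0.15 in water 1, 3 and 4. Water 1 was thus as low as ammonium 3 for these transcripts. Examples with the greatest falls, pp_204313, pp_204315 and pp_204311, have neighbouring identifiers. In the vessels pp_204313 held 40.5, 38.0 and 35.7 with water and 37.2, 2.99 and 9.41 with ammonium 1, 3 and 4, so its difference on the log2 scale was -2.60 without ammonium 1 (SE 0.54, limma adjusted p = 0.0488) and -1.74 with it (adjusted p = 1).

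Transcript pp_236169 had the lowest adjusted p of this set. It held 3.39, 1.44 and 2.89 with water, 2.41 in ammonium 1, 0.0250 in ammonium 3 and 0 in ammonium 4. Without ammonium 1 its log2 difference was -1.78 (SE 0.20, limma adjusted p = 0.00203). Of the 17 higher transcripts, 0 were vessel-enriched. The greatest difference was that of pp_134880, which held 13.1, 19.4 and 3.30 with water and 6.86, 180 and 70.2 with ammonium, and a difference without ammonium 1 of 3.40 on the log2 scale (SE 0.70, limma adjusted p = 0.0488).

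**Figure D5:**
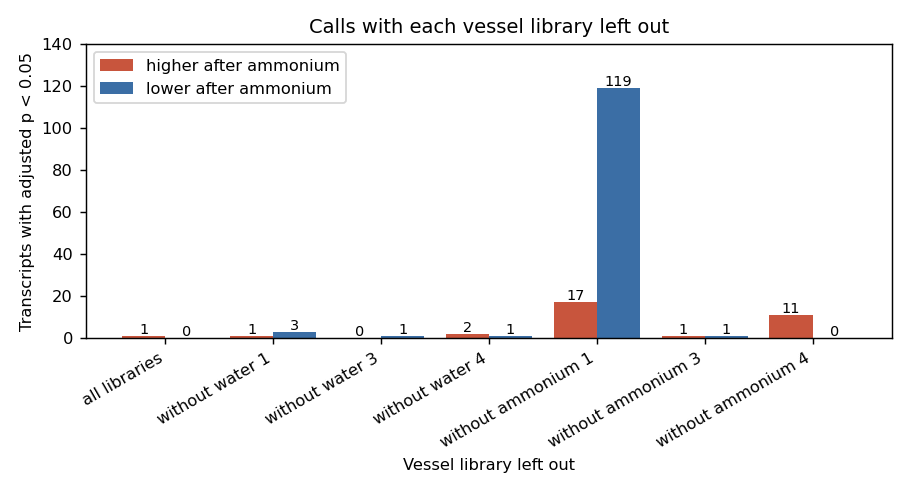
Number of transcripts with an adjusted p under 0.05 (vertical axis) in the vessel contrast with all libraries and with each vessel library left out (horizontal axis), higher after ammonium in red and lower in blue. Leaving out ammonium 1 gives 17 higher and 119 lower; every other bar is at 11 or less.

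Without ammonium 4 there were 11 higher (0.0234%) and 0 lower. Of the 11, 8 were vessel-enriched, against 6.58% of all transcripts. The called transcript pp_147764 was in this set (adjusted p = 0.00376) and in that made without ammonium 1 (0.00787). DESeq2 on recovered reads called 129, with 112 higher (0.239%) and 17 lower (0.0363%). Of these 129, 69 had a mean signal under 1 over the 6 libraries, as did 6223 of all 46960 transcripts. There were 30 with 0 reads in all water libraries and 13 with 0 reads in all ammonium libraries, counts not made for all transcripts. Vessel-enriched transcripts numbered 0. Only 61 of the 129 had an unadjusted limma p under 0.05, and in 54 the groups lay wholly apart. DESeq2 shared 12 transcripts with the set called without ammonium 1, which is 9.30% of its own calls and 8.82% of the other set.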

How the data were processed

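The deposited signal is, per the submitters' processing notes, derived from reads handled with bcl2fastq and BWA; how reads were counted and scaled, and against which transcripts, is not given in the sources used here. In each library the authors' values stepped by a fixed amount, taken as 1 read, and 100% came out whole within 0.01 reads. Transcripts with a signal of at least 1 in at least 3 of 24 libraries were kept, which removed 158. Tests ran in limma 3.58.1, edgeR 4.0.16 and DESeq2 1.42.0 under R 4.3.3, and plots in matplotlib 3.10.9. The main test was limma with trend on log2(signal + 1), so fold changes understate those of low transcripts, over 8 groups and 24 libraries, with Benjamini-Hochberg adjustment and a threshold of 0.05. The planned design assumed CPM; the same log-scale test was used for the scaled signal. Interactions had each set of 4 tissues as a term. Amplified reads carry no molecular identifiers, so floors of 3 reads cover counting error only. Neighbouring identifiers can share reads. Procedures were tested on simulated reads. The rule for named transcripts took called ones, the 8 greatest rises and 8 greatest falls (unadjusted p under 0.05, mean signal of at least 5, groups apart), the 4 most abundant and 6 leading vessel-list transcripts, with 1 per identifier run; others are marked. Members, lists and tests were chosen with earlier results of these data known.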

Additional observations from a re-analysis of the deposited data

Results flagged for a closer look

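For 2 of the transcripts described, every ammonium library lay above every water library in the vessels and below every water library in the cortex. The vessel effect minus the cortex effect was 6.02 for pp_181110 (SE 1.30, limma adjusted p = 0.553) and 4.32 for pp_88527 (SE 1.14, limma adjusted p = 0.565). Neither passed the threshold over all transcripts.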

How the results depend on the processing

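The vessel count of 1 remained 1 with pseudocount 0.1, with no filter and with a filter on the 6 vessel libraries, although pseudocount 0.1 called pp_58601 and not pp_147764. It was 3 with pseudocount 4, 5 with library weights, and 0 with quantile normalization, with median-of-ratios scaling, without the 2 meristem ammonium libraries, in a fit of the 6 vessel libraries and in edgeR's quasi-likelihood test, with 1718, 1463, 1871, 1772 and 1644 at an unadjusted p under 0.05. DESeq2 called 129. With 1 library left out the count ran from 1 to 136. Without water 1 and ammonium 4 together, chosen after seeing the data, it was 12 (9 higher and 3 lower). The cause of these shifts was not tested. The experiment number as a replicate block gave 2 calls over 24 libraries and 0 over the 6 (limma, 1583 at an unadjusted p under 0.05). Same-numbered libraries deviated from their group means with correlations of -0.25, 0.25 and -0.18, against 0.43 for water 1 with ammonium 4. Deviations within a group of 3 sum to 0, so these correlations constrain one another and cannot decide whether the numbers mark pairs. The main test did not take the numbers as pairs. The interaction count of 0 was 1 with library weights. The median of the root cap list, 0.04, was 0.20 with pseudocount 0.1, 0.0105 with pseudocount 4, 0.00524 with quantile normalization, 0.00806 to 0.0510 with 1 library left out and 0.0224 without water 1 and ammonium 4. Scaling moved the median of all transcripts by less than 0.1. No alternative varied depth, so its part was not tested.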
